A study of Mus musculus with 32 samples.

Results

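GSMG0018104 is 1 of the 56459 features in the deposited count table, and it was chosen because its level differed widely between libraries of the same neuron population. Its own levels are therefore given as a description, with no test. The table does not pair its identifiers with gene names, and 0 of the 56459 identifiers occurred in the reference tables used here, so the gene behind this feature is not named and no sequence is printed. The deposited length of the feature is 1215, taken as bases.

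The libraries hold ribosome-associated RNA of wild-type mice, from 8 combinations of driver and tissue with 4 libraries each. CamK, Scnn, PV, SST and VIP were sampled in the cortex (20 libraries), and CamK, Grik and SST in the hippocampus (12 libraries). The labels give no age, sex or further allele, and do not say whether the libraries of a group come from separate animals. The p-values below therefore measure only the spread between these libraries, which may be technical.

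As background that the labels do not state, such RNA is obtained by pulling down ribosomes that carry a tag in cells marked by a Cre driver line. CamK, Scnn and Grik mark excitatory neurons, which release glutamate; cortical Scnn cells lie mainly in layer 4, and hippocampal Grik cells mainly in CA3. The 3 remaining drivers, PV, SST and VIP, mark classes of inhibitory interneurons, which release GABA. Because the features carry no names, no marker gene could be looked up, and neither the labelled populations nor RNA of other cell types could be checked. With RNA from many cells pooled, fewer cells of a type and less RNA per cell cannot be told apart.

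Library totals ran from 100158438 to 114153919 counts, with SST hippocampus replicate 1 apart from the rest at 186505391. Levels are given as CPM, the count of a feature scaled to a common library total. The count of the feature was whole in 3 of 32 libraries, within 1e-06, against 20.1% of all values above 0 in the table. How fractions of counts arose is not given in the sources used here, so a share of reads divided with another feature cannot be set apart.

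The feature reached its highest levels in SST neurons of the hippocampus, but not in every library. It stood at 228.7 CPM in replicate 1, 3.46 CPM in replicate 2, 349.0 CPM in replicate 3 and 223.4 CPM in replicate 5. The other libraries of this group were thus between 64.5 and 100.8 times the level of replicate 2. The count behind that low value was 378, so the low level does not rest on a handful of reads. When CPM were divided by the deposited length, the feature ranked 369 among the 56459 features in replicate 3 and 11357 in replicate 2.

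Grik neurons of the hippocampus gave the same picture with another library. The feature was at 45.3 CPM in replicate 3, 0.427 CPM in replicate 4, 132.7 CPM in replicate 5 and 57.9 CPM in replicate 6. The other libraries had 106.2 to 311.1 times the level of replicate 4, whose count was 45.9. The gap was wider than in SST hippocampus, although the high libraries of SST were above those of Grik.

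CamK neurons of the hippocampus held the feature in all 4 libraries. It was at 60.3 CPM in replicate 2, 43.6 CPM in replicate 3, 16.0 CPM in replicate 4 and 27.1 CPM in replicate 5. The highest was 3.76 times the lowest, so within the hippocampus the wide spread belonged to the Grik and SST groups. Some cortical groups spread widely too. Their highest library was 79.7 times the lowest in Scnn, 58.6 times in SST and 20.3 times in PV. It was 9.11 times in CamK cortex and 3.61 times in VIP.

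**Figure D1:**
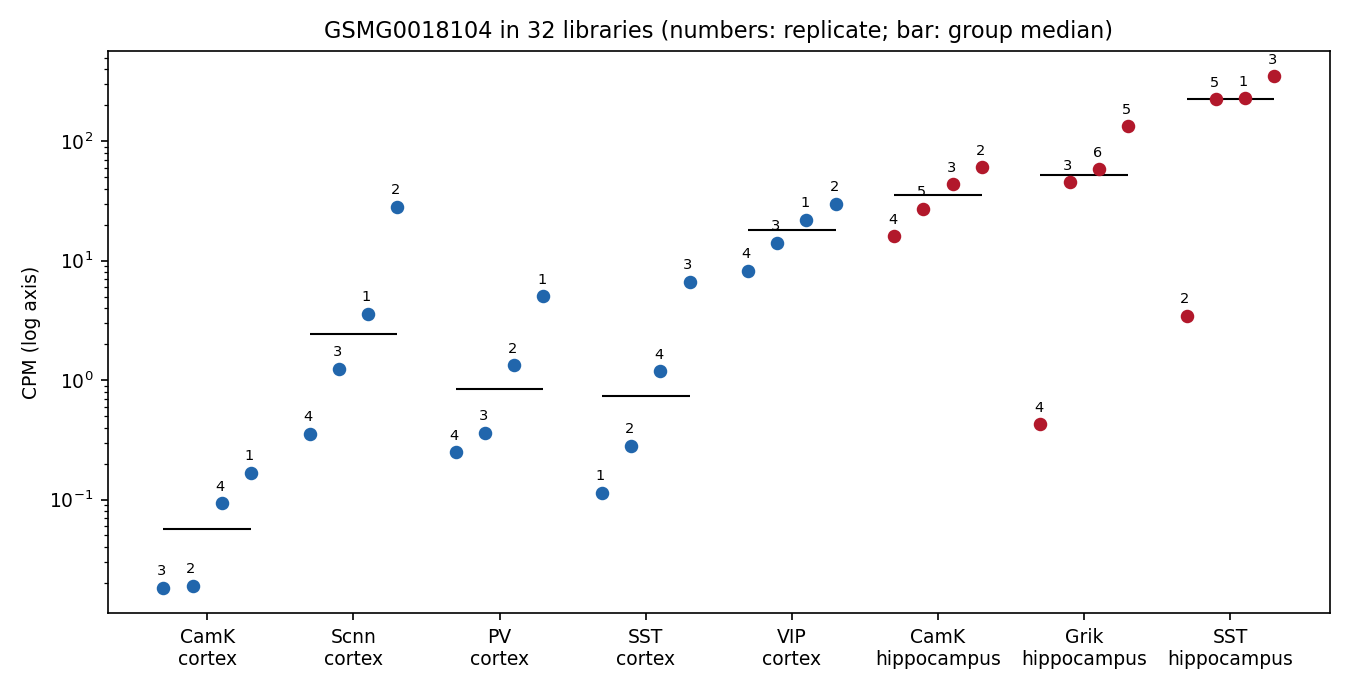
Level of GSMG0018104 in CPM on a log axis, for 8 groups of 4 libraries (blue cortex, red hippocampus). Points are libraries with their replicate number, in order of level, and bars are group medians; Grik hippocampus replicate 4 (0.427 CPM) and SST hippocampus replicate 2 (3.46 CPM) lie far below the other libraries of their groups.

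In the cortex the feature was lowest in CamK neurons, at 0.167, 0.0190, 0.0183 and 0.0933 CPM in replicates 1 to 4. Those levels correspond to counts of 1.93 to 17.9 per library, so the levels in this group rest on few reads. Scnn neurons had 3.60 CPM in replicate 1, 28.3 CPM in replicate 2, 1.24 CPM in replicate 3 and 0.355 CPM in replicate 4. Replicate 2 alone lay at the level of the hippocampal CamK libraries, and without it the Scnn mean was 1.73 CPM in place of 8.38 ± 13.4 CPM (SD, n = 4).

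The inhibitory groups of the cortex were not alike. PV neurons had 5.02, 1.33, 0.361 and 0.248 CPM in replicates 1 to 4. SST neurons had 0.114, 0.283, 6.67 and 1.19 CPM in replicates 1 to 4. In VIP neurons every library was high, at 22.1, 29.8, 14.1 and 8.25 CPM in replicates 1 to 4, and the highest was 3.61 times the lowest. All 4 VIP libraries exceeded all PV and SST libraries of the cortex. How many other features do the same was not counted.

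Ordered by median, the groups were SST hippocampus (226.1 CPM), Grik hippocampus (51.6), CamK hippocampus (35.3), VIP cortex (18.1), Scnn cortex (2.42), PV cortex (0.845), SST cortex (0.734) and CamK cortex (0.0562). In each of the 7 pairs of neighbours in this order the libraries of both groups overlapped. Of all 28 pairs of groups, 10 did not overlap. CamK cortex was in 6 of these, being below every group except SST cortex, and the others set VIP cortex and CamK hippocampus above PV and SST cortex.

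Groups without overlap are common in this table. Every CamK hippocampus library was above every CamK cortex library for 17.6% of the 24555 features with enough counts to be tested. The same held for 19.3% of features for Scnn above CamK cortex, and for 42.9% for VIP above CamK cortex. SST hippocampus lay wholly above SST cortex for 12.2% of features, and GSMG0018104 was not one of these because replicate 2 (3.46 CPM) fell below SST cortex replicate 3 (6.67 CPM). Shares for PV cortex, Grik hippocampus or SST hippocampus above CamK cortex were not computed. Nor were those for VIP cortex or CamK hippocampus above PV or SST cortex. Since the feature was chosen from these values, nothing is read from these shares or from the pairs without overlap.

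The level also went with the series of library titles. Titles of the hippocampal and VIP libraries carry a W, and those of the other cortical groups do not. The feature was at 8 CPM or more in 14 of 16 libraries with a W (median 36.7, range 0.427 to 349.0 CPM) and in 1 of 16 without (median 0.358, range 0.0183 to 28.3 CPM). The cut of 8 CPM lies just under the lowest VIP library (8.25 CPM). The groups with a W are those with the highest medians, so this split restates the group order and tests nothing. What the W stands for is not given. Within CamK and within SST the region and the W change together and cannot be told apart. Replicate 4 was the lowest library in 5 of the 7 groups that have a number 4 (CamK and Grik hippocampus, and Scnn, PV and VIP cortex) and the highest in 0. CamK cortex and SST cortex were lowest in other libraries, and SST hippocampus, which has no number 4, was lowest in replicate 2. What the numbers mark is not given, and their part in these levels was not tested.

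Spread between replicates was measured as the within-group SD of log2(CPM + 0.1). Over the 12 hippocampal libraries it was 2.79 for GSMG0018104, against a median of 0.27 over the other 24554 features. Only 4 of those had a larger value. Over the 20 cortical libraries the SD was 1.75, against a median of 0.29, and 13 features had a larger value. These values chose the feature and are not a test.

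**Figure D2:**
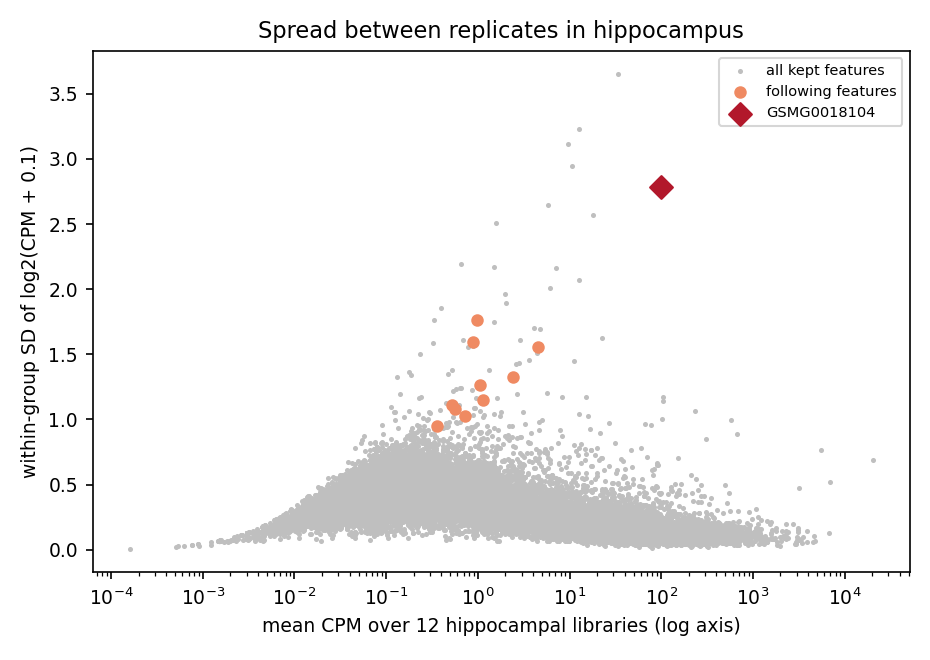
Within-group SD of log2(CPM + 0.1) against mean CPM (log axis) over the 12 hippocampal libraries, for each kept feature (grey), the 10 features that follow GSMG0018104 (orange) and GSMG0018104 itself (red diamond). GSMG0018104 has an SD of 2.79 against a median of 0.27, and the following features lie between 0.95 and 1.76.

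Depth moved little with the feature within groups. Over the 12 hippocampal libraries, each centred on its group, Pearson's r with the log2 library total was 0.23 (Spearman 0.22), and with how many features reached 1 CPM it was 0.13 (Spearman -0.07). SST hippocampus replicate 1, the deepest library, had nearly the level of replicate 5. GSMG0038934 and GSMG0023431, abundant features that are high in Scnn and VIP, had a joint level that gave r of 0.12 in hippocampus and 0.49 in the 20 cortical libraries (Spearman 0.15 and 0.44). GSMG0043055, which is near 0 in some libraries of most groups and well above 10 CPM in the others, gave r of 0.38 in hippocampus and 0.03 in cortex (Spearman 0.41 and 0.08). These correlations describe libraries that share groups and are given without a test.

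Other features moved with GSMG0018104 from library to library. A feature was taken to follow it when Pearson's r of log2(CPM + 0.1), centred on the group, was at least 0.9 over the 12 hippocampal libraries. This held for 10 of the other 24554 features (0.0407%), and 4 (0.0163%) moved inversely, with r of -0.9 or below. The lowest r inside the threshold was 0.901 and the highest outside it was 0.884. The median over all features was 0.04.

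All 10 following features were lowest in Grik replicate 4 within Grik hippocampus, where 20.4% of all features were lowest. All 10 were also lowest in SST replicate 2 within SST hippocampus (24.7% of all features). In CamK hippocampus, 5 of 10 were lowest in the same library as GSMG0018104 (32.9% of all features). In all 3 hippocampal groups together, 5 of 10 shared its lowest library, against 1.66% of all features, and 5 of 10 its highest, against 2.25%. Because these features were selected on the same libraries, the shares describe the choice and test nothing.

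The low libraries can also be counted directly. Features at least 4-fold lower in both Grik replicate 4 and SST replicate 2 than in every other library of the group, on the scale of CPM + 0.1, numbered 3 of 24554 (0.0122%). All 3 are among the 10 following features. Both libraries were picked because GSMG0018104 is low there, so this overlap restates the choice and tests nothing. Both libraries lay within the range of the other hippocampal libraries in their totals (107541048 and 109141183) and in the number of features reaching 1 CPM (13693 and 14128).

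The following features were far less abundant than GSMG0018104. Their means over the hippocampal libraries ran from 0.363 to 4.50 CPM, with a median of 0.930. Summed over all 10, they stood at 6.51, 7.56, 2.27 and 6.05 CPM in CamK hippocampus replicates 2, 3, 4 and 5. In Grik hippocampus the sum was 6.74, 0.502, 14.5 and 7.84 CPM in replicates 3, 4, 5 and 6. In SST hippocampus it was 30.6, 3.52, 43.4 and 27.9 CPM in replicates 1, 2, 3 and 5.

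Since the 10 were chosen for moving with the feature in these libraries, a sum that follows it restates the choice. The sum was not a fixed share of the feature. In the 10 hippocampal libraries other than Grik replicate 4 and SST replicate 2 it was 10.8% to 22.3% of the CPM of GSMG0018104, on a scale not divided by length. In the libraries where the feature was low it was 117.7% (Grik replicate 4) and 101.7% (SST replicate 2). The sum fell less far: the other Grik libraries had 13.4 to 28.9 times the sum of replicate 4, and the other SST libraries 7.92 to 12.3 times that of replicate 2. Per log2 unit of GSMG0018104 the following features changed by 0.31 to 0.60 units (median 0.39) within groups. A feature at 0 cannot fall further, and the pseudocount of 0.1 CPM limits these changes. Of the 10, only 4 were above 0 in every Grik library and 9 in every SST hippocampus library. In Grik replicate 4, GSMG0015319 alone made up 0.353 of the summed 0.502 CPM. How far this floor shaped the smaller fall was not tested.

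**Figure D3:**
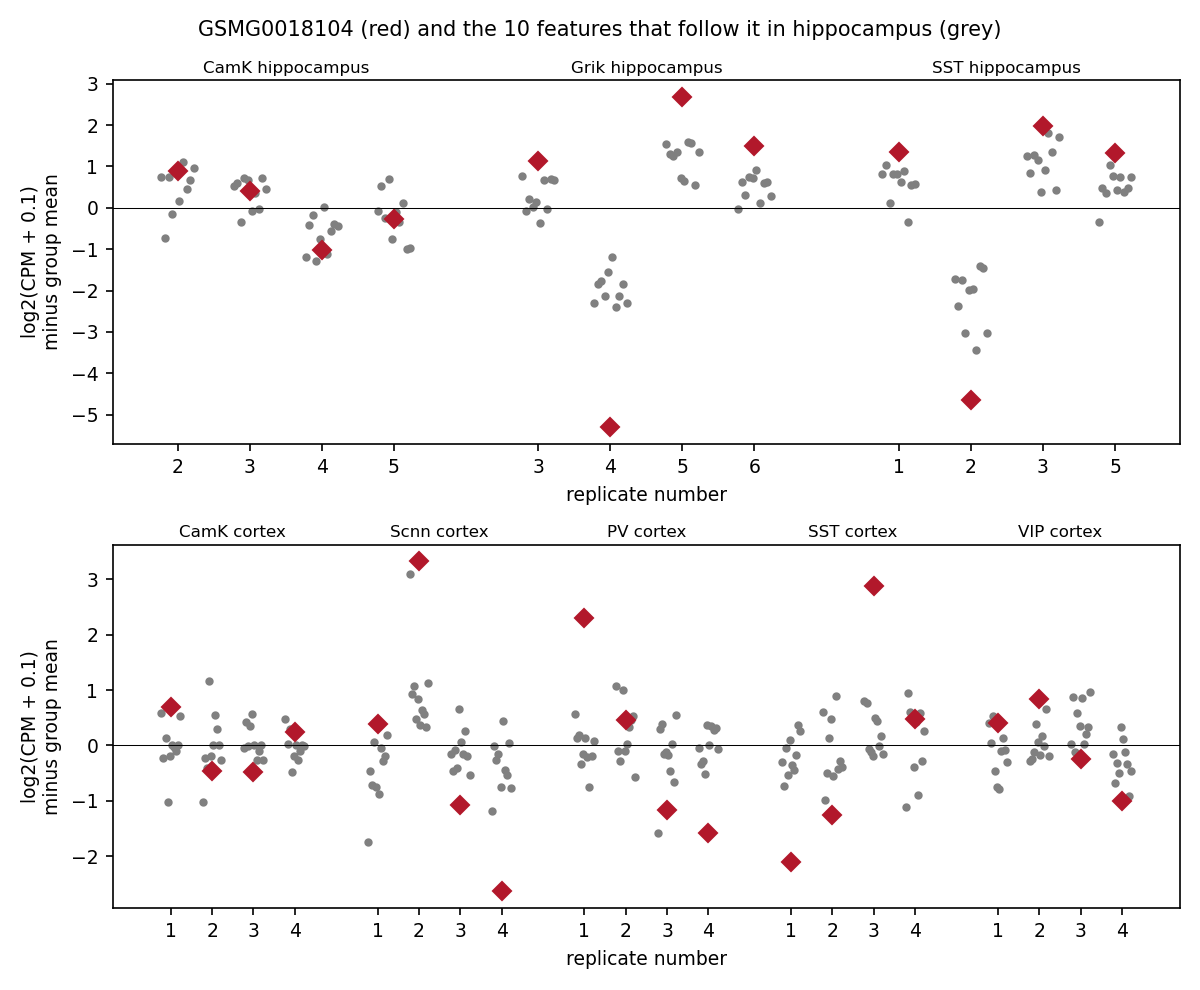
Log2(CPM + 0.1) minus the group mean in each library, for GSMG0018104 (red diamonds) and the 10 features that follow it in hippocampus (grey points), in 3 hippocampal groups (top) and 5 cortical groups (bottom). All 10 lie lowest in Grik replicate 4 and in SST replicate 2. In the cortex they rise with GSMG0018104 in Scnn replicate 2, while in PV replicate 1 and SST replicate 3 they lie on both sides of 0.

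Which features follow rests largely on those low libraries. Without Grik replicate 4, 24 features passed the threshold and 6 of the 10 were among them; without SST replicate 2, 7 passed and 4 of the 10 were among them. Without both, 46 passed, with 1 of the 10 among them. The 10 still had r of 0.33 to 0.93 (median 0.73) over the remaining 10 libraries, and 8 of them had at least 0.5, against 17.4% of all features. These 10 libraries are among the 12 that chose the features, so a higher share follows from the choice.

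GSMG0015319 had the highest r among features averaging 1 CPM or more in hippocampus, 0.92 (Spearman 0.91, n = 12 libraries). It was at 2.17, 4.08, 0.932 and 4.01 CPM in CamK hippocampus replicates 2, 3, 4 and 5, and at 1.92, 0.353, 4.97 and 3.25 CPM in Grik replicates 3, 4, 5 and 6. In SST hippocampus it was at 9.30, 0.550, 11.6 and 10.8 CPM in replicates 1, 2, 3 and 5. It shared the lowest library of GSMG0018104 in each of these groups, and the highest one in Grik and SST but not in CamK.

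GSMG0033573 was next, with r of 0.92 (Spearman 0.83). It stood at 0.468, 0.304, 0.181 and 0.344 CPM in CamK hippocampus replicates 2, 3, 4 and 5. Grik replicate 4 had a count of 0 for it, and replicates 3, 5 and 6 had 0.325, 1.20 and 0.558 CPM. In SST hippocampus it was at 1.60, 0.709, 5.35 and 2.67 CPM in replicates 1, 2, 3 and 5. Its libraries kept the order of GSMG0018104 in Grik, and in SST apart from replicates 1 and 5.

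The inverse features moved by little. Their within-group SD in hippocampus was 0.24 to 0.27, against a median of 0.27 over all features. GSMG0000889, with r of -0.91 (Spearman -0.76), was at 0.828, 1.20, 0.660 and 0.797 CPM in Grik replicates 3, 4, 5 and 6 and at 0.828, 1.16, 0.738 and 0.683 CPM in SST replicates 1, 2, 3 and 5. GSMG0003415, the next feature averaging 1 CPM or more, lay outside the threshold (r of -0.85, Spearman -0.73). It was at 0.780 CPM in Grik replicate 4 against 0.305 to 0.405 CPM in the others. Without Grik replicate 4 and SST replicate 2, r of the 4 inverse features was -0.55 to 0.22 (median -0.03), with 2 of 4 above 0, so the inverse relations rest on those libraries. It was -0.55 for GSMG0000889 and -0.30 for GSMG0003415.

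The cortical libraries were not used to choose the following features. Over these 20 libraries all 10 had r above 0 with GSMG0018104, as 46.8% of all features did, with a range of 0.02 to 0.60. The median was 0.26, against -0.02 over all features, and 2 of 10 had r of at least 0.5 (2.92% of all features). Levels of the 10 were low in cortex, with means of 0.054 to 1.66 CPM. Their median there, 0.109 CPM, was near the pseudocount of 0.1 CPM, against 3.02 CPM over all other features. Of the 10, 9 were at 0 in at least 1 of the 32 libraries. The part of few reads in these r values was not tested. No feature reached 0.9 in cortex (0%), and the 5 that reached 0.8 had r of -0.50 to 0.56 in hippocampus, none of them among the 10. For GSMG0000889 r was 0.24 in cortex, the opposite sign from hippocampus, while for GSMG0003415 it was -0.63.

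**Figure D4:**
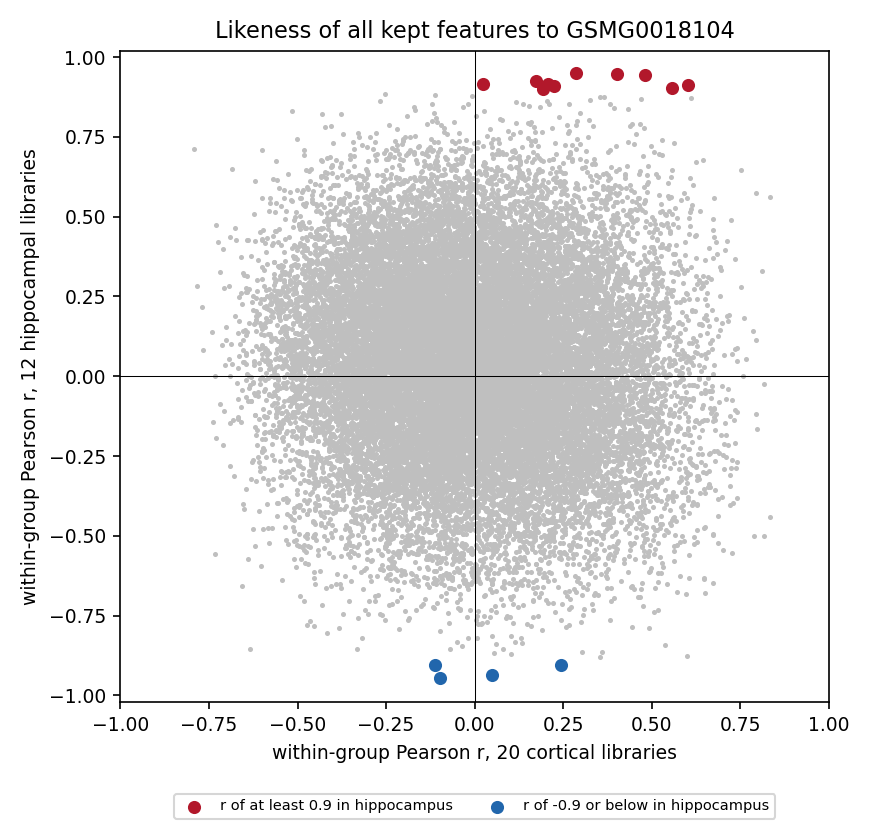
Within-group Pearson r with GSMG0018104 over 12 hippocampal libraries (vertical axis) and 20 cortical libraries (horizontal axis), one point per kept feature. The 10 features with r of at least 0.9 in hippocampus (red) all lie to the right of 0 in cortex, between 0.02 and 0.60; the 4 inverse ones (blue) lie on both sides of 0.

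Scnn was the only cortical group whose omission lowered the median r of the following features. In Scnn cortex 9 of 10 following features were highest in replicate 2, the library in which GSMG0018104 was highest, as were 22.5% of all features. Their sum was 7.36 CPM there and 2.06, 2.10 and 1.99 CPM in replicates 1, 3 and 4. Without the Scnn group the median r was 0.10, against 0.02 over all features, with 7 of 10 above 0. Without the PV group the median r rose to 0.46.

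In PV and SST cortex the high library of GSMG0018104 was not that of most of the following features. PV replicate 1 was the high PV library of GSMG0018104, but the sum of the following features was lowest there, at 1.44 CPM against 2.90, 1.53 and 1.79 CPM in replicates 2, 3 and 4. In SST cortex the sum was 3.14, 4.44, 4.47 and 6.25 CPM in replicates 1 to 4, so replicate 3, the high one of GSMG0018104, was not set apart. GSMG0015319 alone made up most of that sum, at 1.96, 3.17, 2.64 and 4.25 CPM. In PV replicate 2 GSMG0015319 (0.967 CPM) and GSMG0033573 (1.01 CPM) made up most of the sum. These sums therefore say little of the less abundant following features. Of the 10 features, 1 was highest in PV replicate 1 (29.5% of all features) and 2 in SST replicate 3 (31.2%). In CamK cortex, where levels rest on few reads, 4 of 10 were highest in replicate 1, as GSMG0018104 was (27.0% of all features).

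Differences between groups in the following features were tested with edgeR's quasi-likelihood test over all 24555 features, with Benjamini-Hochberg adjustment. A call needed an adjusted p under 0.05 and a difference of at least 2-fold. The features had been chosen from deviations within hippocampal groups, not from group means. A feature with few reads in the hippocampus could hardly have been chosen, however, so the choice favours features that are higher there. The mean levels of the following features had a median of 0.930 CPM in hippocampus and 0.109 CPM in cortex. Shares of them called higher in hippocampus therefore partly restate the choice, and shares over all features are no yardstick for these. The filter used all 32 libraries, so a feature with few counts in both groups compared could still be tested.

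In SST neurons 8 of 10 following features were called higher in hippocampus than in cortex, and 0 lower. Over all features 3.92% were called higher and 3.54% lower, but these were not chosen for their levels in hippocampus. With only the SST groups filtered and fitted, 9 of the 10 could be tested and 6 were called. The median log2 fold change of the 10 was 4.06, against 0.02 over all features. Among the 80 other features with a hippocampal mean and SD at least as large as the lowest of the 10, 23.8% were called higher.

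In CamK neurons 6 of 10 were called higher in hippocampus, and 0 lower, where 5.43% of all features were called higher and 8.46% lower. Of the same 80 features 18.8% were called higher. With only the CamK groups filtered and fitted, 7 of the 10 could be tested and 6 were called. The median log2 fold change was 3.88, against 0.00 over all features. Two-sided tests by edgeR gave GSMG0033573 a log2 fold change of 5.26 (SE 1.12, adjusted p = 0.000378) in CamK. It was at 0 in CamK cortex replicates 1, 3 and 4 and at 0.0319 CPM in replicate 2, below every hippocampal CamK library. In SST its log2 fold change was 1.48 (SE 0.70, adjusted p = 0.134), which did not pass.

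GSMG0015319 did not pass in either population. Its log2 fold change between hippocampus and cortex was 1.01 (SE 0.69, edgeR adjusted p = 0.275) in CamK and 1.42 (SE 0.68, adjusted p = 0.146) in SST. GSMG0003415, which moved against GSMG0018104 within groups, fell by 2.33 on the log2 scale in CamK hippocampus (SE 0.20, edgeR adjusted p = 2.58e-11) and fell by 1.86 in SST hippocampus (SE 0.18, adjusted p = 2.95e-09). Between Scnn and CamK cortex it was higher in Scnn by 1.43 (SE 0.18, adjusted p = 1.11e-07), the same direction as GSMG0018104. GSMG0000889 had a log2 fold change of 0.11 in CamK (SE 0.27, edgeR adjusted p = 0.793). In SST it was -0.77 (SE 0.28, adjusted p = 0.0450), under the 2-fold limit of a call. Between Scnn and CamK cortex GSMG0000889 fell by 1.55 (SE 0.28, adjusted p = 4.00e-05). Hippocampal groups carry the W in their titles, so in the comparisons of hippocampus with cortex the region and the W cannot be told apart.

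Between Scnn and CamK cortex 3 of 10 following features were called higher in Scnn and 0 lower, where 13.7% of all features were called higher and 5.94% lower. Of the 80, 27.5% were called higher, so the share among the 10 is near that of comparably variable features. The median log2 fold change was 2.63, against -0.01 over all features. Without Scnn replicate 2 it was 1.21 and 2 of 10 were called. When only the Scnn and CamK cortex libraries were filtered and fitted, 4 of the 10 could be tested and 2 were called. The rest of the 10 were kept for the main test through counts in other groups. CamK cortex serves in both comparisons with CamK, and 2 of the 10 features were at 0 in all 4 of its libraries. Their fitted fold changes depend on the method and are not bounds. With these set against 3 counts over the group the medians were 3.88 and 2.63, as before. Those 2 features are the highest of the 10, so a median hardly depends on their exact values.

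**Figure D5:**
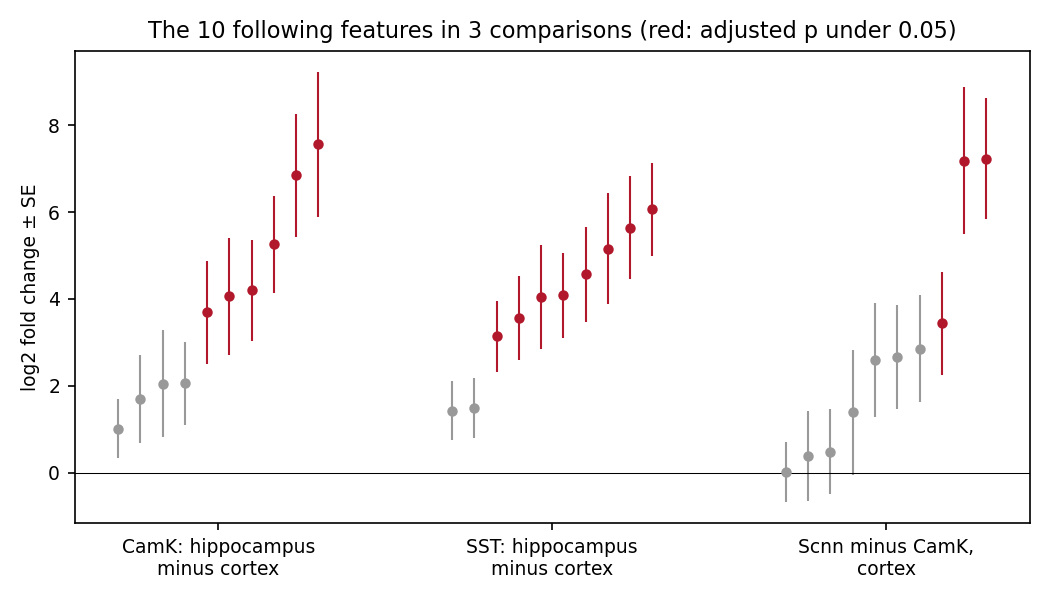
Log2 fold change ± SE from edgeR for each of the 10 following features, sorted, in 3 comparisons (red: adjusted p under 0.05; grey: not passed). All estimates lie above 0, with 6, 8 and 3 of 10 called; in both comparisons with CamK cortex the highest 2 belong to features at 0 in all its libraries and are no bounds.

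For GSMG0018104 itself the same fit gave log2 fold changes of 8.85 (CamK hippocampus minus cortex), 6.61 (SST hippocampus minus cortex) and 6.71 (Scnn minus CamK cortex). They are given without a test, since the feature was chosen from these values. The following features thus had smaller median differences than GSMG0018104 in each of these comparisons. VIP cortex, where every library held the feature, also had the highest median sum of the following features among cortical groups, with 8.08, 7.49, 9.89 and 6.16 CPM in replicates 1 to 4. VIP libraries also held the most features at 1 CPM or more, 15406 to 16044 against at most 14733 in any library of the other groups. Within VIP, 2 of 10 following features were highest in replicate 2, as GSMG0018104 was (24.4% of all features). The lowest library was shared more often, since 7 of 10 were lowest in replicate 4 (37.1% of all features), where their sum was lowest too.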

How the data were processed

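The deposited table holds expected counts made by the authors, which are often fractions. FastQC, Picard, SAMtools, featureCounts and the build GRCm38 are listed, per the submitters' processing notes; their roles and versions, the aligner, the annotation, the counting mode and the use of strand are not given in the sources. Per the labels' protocols, 50 ng of RNA went into a stranded kit that selects polyadenylated RNA. A deposited length per feature (another column, unit taken as bases) served for ranks. The table holds 12 further columns of per-sample values that match no sample of the labels; they were not used.

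Groups came from titles and tissue labels. CPM used column totals. Counts were rounded, features kept by filterByExpr (24555 of 56459), scaled by TMM and fitted in edgeR 4.0.16 (R 4.3.3) with 1 coefficient per group over 32 libraries (24 residual degrees of freedom). Adjusted p-values are Benjamini-Hochberg over all kept features, two-sided. DESeq2 1.42.0 was an alternative. SE is the log2 fold change over the square root of F. Named features are the 2 with the highest and the 2 with the lowest r over the hippocampal libraries among those with a mean of at least 1 CPM there, plus 3 given for library measures. Correlations use a pseudocount of 0.1 CPM. Scripts were tested on simulated data. GSMG0018104 and the rules were chosen with earlier results of these data known. Cell type marker lists could not be applied, because no identifier matched a gene name.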

Additional observations from a re-analysis of the deposited data

Results flagged for a closer look

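In groups of 4 libraries, 48 sets of values were examined for a library far from the others, and chance marks about 1 in 20 such sets. GSMG0018104 was chosen for its spread between libraries, and the other features for moving with or against it. That rate is therefore no yardstick for these sets, and the marks below are a description. GSMG0018104 stood out in Scnn cortex replicate 2 (28.3 CPM, the others at 0.355 to 3.60) and in SST cortex replicate 3 (6.67 CPM, the others at 0.114 to 1.19). In Scnn cortex replicate 2 the summed level of the 10 following features stood out too, at 7.36 CPM against 1.99 to 2.10 in the other libraries. GSMG0015319 was high in PV cortex replicate 2, at 0.967 CPM against 0.275 to 0.381. GSMG0033573 was above 0 only in replicate 2 among the CamK cortex libraries, at 0.0319 CPM. In CamK cortex replicate 1 GSMG0000889 was high, at 4.20 CPM against 2.57 to 2.73, and GSMG0003415 was low, at 4.04 CPM against 5.44 to 5.71. The low hippocampal libraries of GSMG0018104 (Grik replicate 4 and SST replicate 2) did not meet this criterion, because the spread among the other 3 libraries was wide on the linear scale.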

How the results depend on the processing

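Of 126 alternative values, 112 stayed within the spread or within 1.5 times the count they replace, and 14 did not. For group means the spread is the SD over the libraries. Leaving out 1 of 4 libraries, or taking the median, cannot move a mean by more than that. Those alternatives had to count as unmoved, so the tally does not measure stability. The Scnn cortex mean, 8.38 CPM, was counted so although it was 1.73 CPM without replicate 2. The number of following features (10) was 6 with a pseudocount of 0.5 CPM, 5 when 1 CPM was required in at least 4 libraries, 1 by Spearman rho, 48 at r of at least 0.8 and 0 over all 32 libraries. Without the 2 lowest hippocampal libraries together, added after seeing the data, it was 46; leaving out 1 library gave 7 to 24. With a replicate block on the title numbers it was 335, with 4 residual degrees of freedom in place of 9. The median r in cortex was 0.46 without PV cortex. Called following features numbered 3 in CamK and 3 in SST under the 1 CPM filter, which left 5 of the 10 to test. In Scnn against CamK they numbered 6 by DESeq2 and 5 without the 2 lowest hippocampal libraries. With only the 2 groups compared filtered and fitted, fewer of the 10 could be tested. Of those tested, 6 of 7 were called in CamK, 6 of 9 in SST and 2 of 4 in Scnn against CamK. Leaving out 1 library gave 4 to 6 in CamK (4 without CamK hippocampus replicate 2 or CamK cortex replicate 3), 7 to 9 in SST and 2 to 4 in Scnn against CamK (2 without CamK cortex replicate 4 or Scnn replicate 2). Group means of GSMG0018104 with 1 library left out ranged from 0.0436 to 0.0931 CPM in CamK cortex, 1.73 to 11.1 in Scnn, 0.646 to 2.24 in PV, 0.528 to 2.71 in SST cortex, 14.8 to 22.0 in VIP, 28.9 to 43.7 in CamK hippocampus, 34.6 to 78.7 in Grik and 151.9 to 267.0 in SST hippocampus. Same-numbered libraries of compared groups correlated at -0.08 to 0.10 in their deviations. With 2 to 4 such pairs per comparison, these values are too few to tell whether title numbers pair the libraries. With the replicate block 6, 8 and 4 of 10 features were called in CamK, SST and Scnn against CamK.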
